A study of Mus musculus with 36 samples.

Results

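Long intergenic non-coding RNAs (lincRNAs) are transcripts, mostly spliced and polyadenylated, of genes that encode no known protein and lie apart from protein-coding genes. The 163 lincRNA genes described here were chosen by their level in sham mice. A gene was taken where the deposited table gave it the biotype lincRNA and where its mean over the 6 sham libraries of at least 1 brain region was 2 RPKM or more (read count scaled to gene length and to library depth). They were 9.9% of the 1646 lincRNA genes in a table of 31554 genes. The mice were adult C57BL/6 males, and 3 brain regions were sequenced: the periaqueductal grey (PAG), the nucleus accumbens (NAc) and prefrontal cortex (PFC). The mice had either sham surgery or a spared nerve injury (SNI) of the sciatic nerve, a lasting partial nerve cut used as a model of neuropathic pain, and tissue was taken 2.5 months later. The 6 groups (NAc sham, NAc SNI, PFC sham, PFC SNI, PAG sham and PAG SNI) had 6 libraries each, 36 in all, made from RNA selected on poly-T beads. The labels name no transgene and no drug, and every mouse was operated on. They speak of pooled RNA without saying how many mice a library stands for, so p-values measure the spread between libraries, which may be partly technical.

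LincRNAs are made by RNA polymerase II and processed much as messenger RNAs are, but they are usually kept at lower levels, and many remain in the nucleus. A few have well studied roles: Malat1 gathers at nuclear speckles, Neat1 builds paraspeckles, Meg3 is expressed from the maternal copy of an imprinted locus, and Ftx lies in the X inactivation centre. Others are hosts from which microRNAs or small nucleolar RNAs are cut, and many start back to back with a gene for a developmental transcription factor, whose regional pattern they often resemble.

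Among the members, 14 contained the position of a microRNA on their own strand in the RefSeq microRNA table of GRCm38.p6. The sequences below show which microRNAs the hosts named in the results carry, and that hosts from different chromosomes carry the same seed. The libraries measured the host transcripts, not the microRNAs. Each sequence runs 5′ to 3′, and the capitals mark the seed, bases 2 to 8, which pairs with target messenger RNAs. The sequence of miR-9-5p lay in 3 members, Gm3764 on chromosome 3, C130071C03Rik on chromosome 13 and Mir9-3hg (AI854517 in the table) on chromosome 7.
miR-9-5p: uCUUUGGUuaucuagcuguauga
miR-29b-3p in A330023F24Rik: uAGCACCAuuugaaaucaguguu
miR-29c-3p in A330023F24Rik: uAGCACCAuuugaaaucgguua
let-7a-5p in 6720427I07Rik: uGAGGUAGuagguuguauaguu
let-7d-5p in 6720427I07Rik: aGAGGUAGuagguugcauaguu
let-7f-5p in 6720427I07Rik: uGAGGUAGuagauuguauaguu
miR-137-3p in Gm26871: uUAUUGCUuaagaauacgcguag
miR-101a-3p in E130102H24Rik: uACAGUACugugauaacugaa
miR-129-5p in Mir670hg (E530001K10Rik): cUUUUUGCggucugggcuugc
miR-134-5p in Mirg: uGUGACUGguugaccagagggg
miR-410-3p in Mirg: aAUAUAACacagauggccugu
miR-374b-5p in Ftx: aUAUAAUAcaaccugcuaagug
The seed CUUUGGU was thus shared by 3 members, AGCACCA by both microRNAs of A330023F24Rik and GAGGUAG by the 3 let-7 microRNAs of 6720427I07Rik. Mirg, which lies downstream of Meg3 in the same imprinted locus, held 14 microRNA genes, the most of any member searched.

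Every library had 27.6 to 64.9 M assigned reads, recovered from the RPKM values, and 159 of the 163 members had at least 1 read in all of them. A member had a median of 267 reads in a library, and the median coefficient of variation within groups was 11.7%. Markers of the dissected tissue stood where the labels put them. Summed RPKM of striatal projection neuron genes was 588 to 934 in the NAc libraries and at most 62.2 elsewhere, that of cortical excitatory neuron genes was 544 to 690 in the PFC libraries, and that of midbrain neuron genes was 131 to 155 in the PAG libraries and at most 6.10 elsewhere. The NAc libraries differed in the cortical sum, from 9.76 in NAc SNI library 12 to 213 in NAc SNI library 7.

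Most members were low. The highest of a member's 3 sham means had a median of 3.87 RPKM, against 11.1 RPKM over the 11775 protein-coding genes that reach the same 2 RPKM. Of the members, 102 (62.6%) lay between 2 and 5 RPKM, 27 were above 10 RPKM and 4 were above 100 RPKM. Members took a median of 0.938% to 1.18% of a group's reads, and Meg3 alone supplied 52.2% of the reads of all members, followed by Malat1 with 9.30%. In the later GENCODE M21 annotation, 97 members kept the type lincRNA, 20 were antisense transcripts, 7 were protein-coding and 15 had no entry. Of the 148 members with an entry, 74 overlapped another gene, 63 of them on the opposite strand. Whether the counting used strand is not given in the sources used here, so reads of such a pair may have been shared.

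Meg3 was abundant in each region. Its level was 212, 264 and 325 RPKM (lowest, median and highest library) in NAc sham, 224, 353 and 415 RPKM in PFC sham and 275, 317 and 372 RPKM in PAG sham. In the SNI libraries, which the choice of members did not use, the values were 199, 250 and 366 RPKM in NAc, 282, 331 and 415 RPKM in PFC and 278, 350 and 381 RPKM in PAG. The regions overlapped, with NAc the lowest on the median. The NAc minus PAG difference in the SNI libraries was -0.39 ± 0.12 on the log2(RPKM + 0.5) scale (SE, limma, Benjamini-Hochberg adjusted p = 0.00925), and the PFC minus PAG difference was -0.00 (adjusted p = 0.981).

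Malat1 was higher in the 2 forebrain regions. It had 135, 162 and 209 RPKM in NAc sham, 97.2, 157 and 199 RPKM in PFC sham and 79.1, 87.0 and 127 RPKM in PAG sham. The SNI libraries had 77.2, 145 and 232 RPKM in NAc, 110, 171 and 201 RPKM in PFC and 69.1, 85.9 and 109 RPKM in PAG, so that every PFC SNI library lay above every PAG SNI library while NAc overlapped with both. The difference was 0.84 ± 0.21 log2 for PFC minus PAG (limma adjusted p = 0.00179), 0.73 ± 0.21 for NAc minus PAG (limma adjusted p = 0.00532) and -0.11 for NAc minus PFC (limma adjusted p = 0.702).

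Gm26924 (Gm42418 in GENCODE M21) reached levels near those of Meg3, but varied widely between libraries. It had 228 to 531 RPKM in NAc sham, 112 to 406 RPKM in PFC sham and 169 to 644 RPKM in PAG sham. In the SNI libraries, 2 single libraries raised its mean in NAc and PFC. NAc SNI library 8 had 2168 RPKM against 176 to 229 RPKM in the other 5 NAc SNI libraries, and PFC SNI library 21 had 1561 RPKM against 157 to 230 RPKM in the other PFC SNI libraries. On chromosome 17, from 39846958 to 39848788 (mm10), this member overlaps genes annotated as ribosomal RNA on the opposite strand, and the part of ribosomal RNA in its reads was not tested. It differed between no pair of regions and in no region between SNI and sham (limma adjusted p from 0.361 to 1).

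Other abundant members differed more between regions than Meg3. 6330403K07Rik, now annotated as protein-coding, had 168, 180 and 196 RPKM in NAc sham, 142, 150 and 156 RPKM in PFC sham and 269, 283 and 290 RPKM in PAG sham. PAG lay above the other regions in sham and, with 257 to 336 RPKM against at most 217 RPKM, in SNI, where PFC minus PAG was -0.96 ± 0.09 log2 (limma adjusted p = 9.23e-09). 9530082P21Rik, an antisense transcript, had 44.5 to 52.2 RPKM in PAG SNI and 20.5 to 28 RPKM in the SNI libraries of the other regions. Gm14290 showed the opposite order, with 38.5 to 46.6 RPKM in NAc SNI, 47.4 to 55.2 RPKM in PFC SNI and 16.1 to 21.5 RPKM in PAG SNI. Gm16295, a GC-rich transcript on chromosome 9, had 23.5 to 51.7 RPKM in NAc SNI, 19.5 to 30.3 RPKM in PFC SNI and 12.7 to 17.3 RPKM in PAG SNI, so that PAG was below both forebrain regions in every library. The regions were closer together for C330006A16Rik, with 22.5 to 26.8 RPKM in NAc SNI, 17.4 to 19.4 RPKM in PFC SNI and 24.2 to 28.3 RPKM in PAG SNI. NAc and PAG overlapped, and PFC lay below both.

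**Figure D1:**
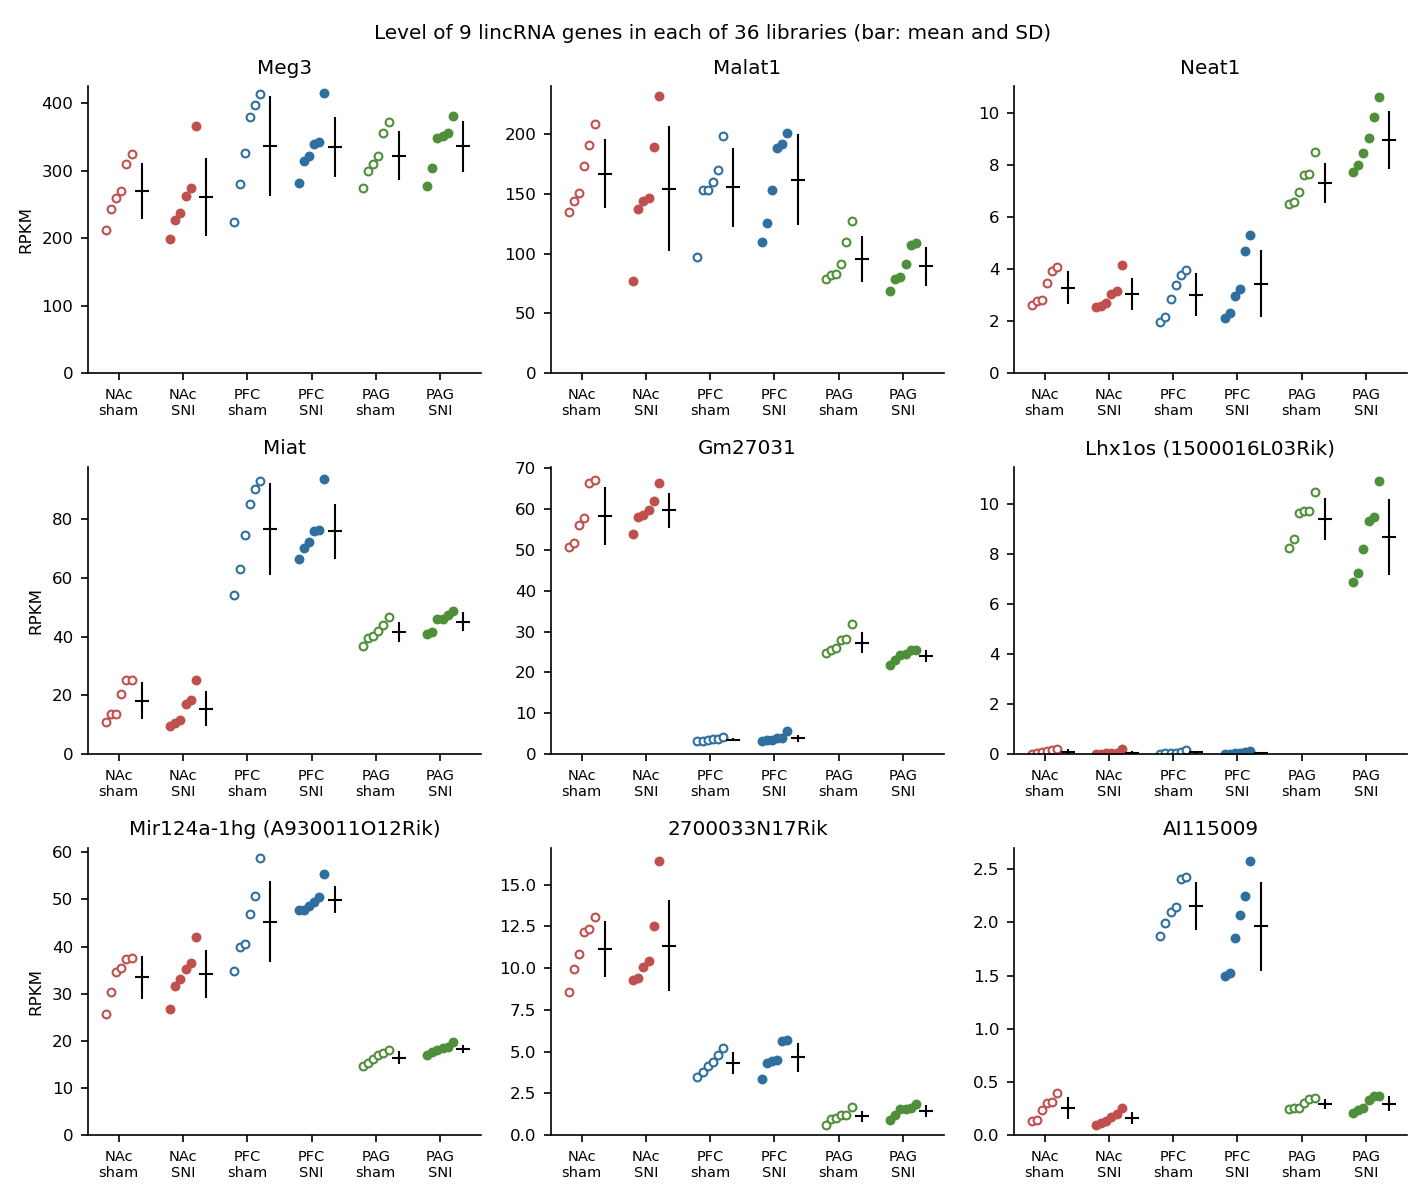
RPKM (linear axes from 0) of 9 members in each of the 36 libraries, by group and ordered by level within it; open points are sham, filled points are SNI, and bars give the mean and SD of 6 libraries. Lhx1os is near 0 outside PAG, Gm27031 is lowest in PFC, and Meg3 lies between 199 and 415 RPKM in all libraries.

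By region of highest sham mean, the members fell into 49 with the highest level in NAc, 53 in PFC and 61 in PAG. This order comes from the libraries used to choose the members and is given as a description. In the SNI libraries the numbers were 47, 53 and 63, and 151 of the 163 had the same highest region in both. A mean at least 2-fold above both other regions in the SNI libraries was found for 8 members in NAc (4.91%), 5 in PFC (3.07%) and 16 in PAG (9.82%). The shares among protein-coding genes of the same minimum level were 2.30%, 2.31% and 5.53%.

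Tests between regions were made in the 18 SNI libraries, with a member called where the adjusted p was under 0.05 and the fold at least 2. In these bulk tissues, fewer cells of a type and less RNA per cell cannot be told apart. Between NAc and PFC, 15 of 163 members (9.2%) were called, 9 higher and 6 lower in NAc, beside 7% of all genes tested (3.29% higher, 3.71% lower). Between NAc and PAG, 39 members (23.9%) were called, 17 higher and 22 lower in NAc, beside 12.9% of all genes (5.85% higher, 7.09% lower). Between PFC and PAG, 35 members (21.5%) were called, 14 higher and 21 lower in PFC, beside 13.2% of all genes (5.89% higher, 7.31% lower). For members of 2 to 10 RPKM in their highest sham region the shares called were, in the same order of pairs, 7.35%, 20.6% and 18.4%. They were 7.15%, 13.3% and 13.9% for protein-coding genes of that level, and these shares were not tested against each other. Members called higher than in both other regions numbered 7 in NAc, 3 in PFC and 16 in PAG. Other genes were not counted in this way, so the larger number for PAG is not shown to be particular to the members. By the 2-fold share of means given above, protein-coding genes also had their largest value, 5.53%, for PAG.

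**Figure D2:**
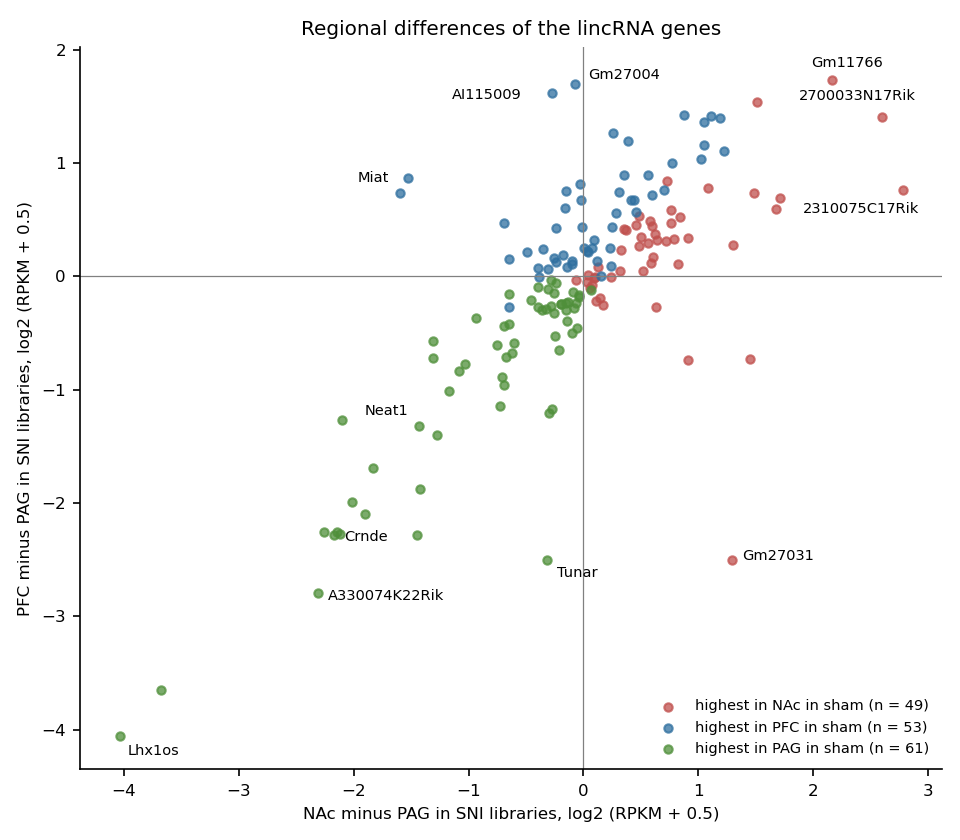
Each of the 163 members by its difference between NAc and PAG (x axis) and between PFC and PAG (y axis) in the SNI libraries, in log2(RPKM + 0.5), coloured by the region of its highest sham mean (NAc 49, PFC 53, PAG 61). Lhx1os stands at -4.04 and -4.06, and Gm27031 is above 0 on the x axis and below 0 on the y axis.

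Several members were found almost entirely in PAG, and on the log2(RPKM + 0.5) scale Lhx1os among them had the largest difference of any member between regions. Lhx1os (1500016L03Rik), on chromosome 11 from 84525660 to 84535831 on the plus strand, runs divergently from Lhx1, which encodes a LIM homeodomain transcription factor. It had 6.89, 8.76 and 10.9 RPKM in PAG SNI, whereas the highest NAc SNI library had 0.184 RPKM and the highest PFC SNI library 0.111 RPKM. The groups were far apart, and the sham libraries showed 8.26 to 10.5 RPKM in PAG and at most 0.210 RPKM elsewhere. The difference was -4.04 ± 0.10 log2 for NAc minus PAG (limma adjusted p = 9.51e-17) and -4.06 ± 0.10 for PFC minus PAG (limma adjusted p = 1.21e-16). As the added 0.5 RPKM exceeds the forebrain levels, these log2 values understate the gap.

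Crnde (4933436C20Rik), which lies beside the homeobox gene Irx5, had 2.28, 2.37 and 2.56 RPKM in PAG SNI and at most 0.276 RPKM in any NAc or PFC library. Its NAc minus PAG difference was -2.17 ± 0.08 log2 (limma adjusted p = 1.2e-14). Gm19980 showed the same contrast, with 3.56, 7.11 and 7.81 RPKM in PAG SNI and at most 0.0597 RPKM in the SNI libraries of the other regions. Its lowest PAG SNI library still lay above every forebrain library, and NAc minus PAG was -3.67 ± 0.13 log2 (limma adjusted p = 2.22e-14). Lncenc1 (Gm2373), named for its enrichment in naive embryonic stem cells, averaged 2.22 ± 0.25 RPKM (SD, n = 6) in PAG SNI against 0.125 and 0.0589 RPKM in NAc and PFC. B230323A14Rik, which overlaps the forkhead gene Foxb1 on the opposite strand, averaged 1.91 ± 0.23 RPKM in PAG SNI and under 0.05 RPKM in both forebrain regions.

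Other PAG members were present elsewhere at a lower level. Neat1 had 7.74, 8.73 and 10.6 RPKM in PAG SNI, 2.53, 2.87 and 4.16 RPKM in NAc SNI and 2.12, 3.09 and 5.29 RPKM in PFC SNI. No forebrain library reached the lowest PAG library, and the differences were -1.43 ± 0.17 log2 for NAc minus PAG (limma adjusted p = 4.12e-07) and -1.32 ± 0.17 for PFC minus PAG (limma adjusted p = 1.19e-06). A330074K22Rik had 8.24 to 13.8 RPKM in PAG SNI, 1.69 to 2.48 RPKM in NAc SNI and 1.0 to 1.54 RPKM in PFC SNI. Gm26782, antisense to the telomerase-associated gene Tep1, had 10.7 to 13.3 RPKM in PAG SNI and at most 6.13 RPKM in the SNI libraries of the other regions.

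In NAc, Gm27031 had the highest level of the members called over both other regions. It had 53.8, 59.1 and 66.5 RPKM in NAc SNI, 3.13, 3.66 and 5.52 RPKM in PFC SNI and 21.8, 24.4 and 25.4 RPKM in PAG SNI, with no overlap between regions. NAc exceeded PFC by 3.80 ± 0.09 log2 (limma adjusted p = 1.57e-16) and PAG by 1.29 ± 0.09 (limma adjusted p = 2.54e-10). The highest PFC SNI value was that of library 24, whose striatal marker sum was 62.2 RPKM against 25.6 to 28.7 RPKM in the other PFC libraries, and the part of striatal tissue in that value was not tested. Gm27031 had no entry in GENCODE M21. 2700033N17Rik, 1 of 2 members near Meis2, which encodes a homeodomain factor of the TALE class, had 9.29, 10.2 and 16.4 RPKM in NAc SNI, 3.35, 4.47 and 5.70 RPKM in PFC SNI and 0.901, 1.57 and 1.84 RPKM in PAG SNI. The 3 regions were separate and descended in that order, NAc exceeding PAG by 2.60 ± 0.15 log2 (limma adjusted p = 1.26e-11). 2310075C17Rik, which overlaps Arpp21 on the opposite strand, had 2.94 to 4.72 RPKM in NAc SNI, 0.248 to 0.844 RPKM in PFC SNI and at most 0.232 RPKM in PAG SNI.

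In PFC, Miat, a nuclear RNA of neurons also known as Gomafu, had 66.7, 74.3 and 93.7 RPKM in the SNI libraries. PAG SNI had 40.8, 46.1 and 48.8 RPKM, and NAc SNI had 9.65, 14.3 and 25.3 RPKM. The 3 regions did not overlap, with NAc below PFC by -2.34 ± 0.17 log2 (limma adjusted p = 1.24e-09), whereas PFC exceeded PAG by 0.74 ± 0.17 (limma adjusted p = 0.000876), under 2-fold. Within NAc, library 7 had both the highest Miat among the SNI libraries, 25.3 RPKM, and the highest cortical marker sum, and library 8 the lowest Miat, 9.65 RPKM, with a cortical sum of 24.4 RPKM. The part of cortical tissue in the NAc level of Miat was not tested. AI115009, antisense to the adenylate kinase gene Ak5, had 1.50, 1.96 and 2.58 RPKM in PFC SNI, 0.0933 to 0.250 RPKM in NAc SNI and 0.210 to 0.372 RPKM in PAG SNI. It was 1 of 3 members called in PFC over both other regions, with A830039N20Rik (63.8 to 86.8 RPKM in PFC SNI) and Gm27004 (0.933 to 2.73 RPKM).

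A further pair of members separated forebrain regions from each other or from PAG. Gm2824 had 0.214, 0.398 and 0.982 RPKM in NAc SNI, 3.55, 4.54 and 5.47 RPKM in PFC SNI and 1.99, 2.31 and 2.46 RPKM in PAG SNI. Its order of PFC, PAG and NAc was that of Miat, and NAc minus PFC was -2.39 ± 0.14 log2 (limma adjusted p = 2.99e-11). Gm11766 had 2.70, 3.51 and 4.59 RPKM in NAc SNI, 2.31, 2.47 and 3.13 RPKM in PFC SNI and 0.288, 0.428 and 0.504 RPKM in PAG SNI. Both forebrain regions lay above PAG in all libraries, by 2.16 ± 0.10 log2 for NAc (limma adjusted p = 1.22e-12).

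Tunar (2810011L19Rik), known from neural differentiation and now annotated as protein-coding, was lowest in PFC. It had 8.67, 9.45 and 9.98 RPKM in NAc SNI, 1.57, 1.64 and 1.85 RPKM in PFC SNI and 11.3, 12 and 12.2 RPKM in PAG SNI. Its narrow spread kept the 3 regions apart, and PFC minus PAG was -2.50 ± 0.04 log2 (limma adjusted p = 8.81e-19).

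Hosts of one microRNA seed did not share one regional pattern. Of the hosts of miR-9-5p, C130071C03Rik had 11.9 to 14 RPKM in NAc SNI, 12.1 to 14.5 RPKM in PFC SNI and 3.77 to 4.78 RPKM in PAG SNI. Mir9-3hg showed the same order of forebrain over PAG, with 4.91 to 7.71 RPKM, 5.08 to 8.61 RPKM and 2.31 to 3.14 RPKM. For C130071C03Rik, PFC minus PAG was 1.54 ± 0.06 log2 (limma adjusted p = 6.72e-14), and for Mir9-3hg it was 1.16 ± 0.12 (limma adjusted p = 4.23e-08). Gm3764 instead averaged 12.3, 19.9 and 17.3 RPKM in NAc, PFC and PAG SNI. Mir124a-1hg (A930011O12Rik), the host named for the neuronal miR-124, had 26.7 to 42.0 RPKM in NAc SNI, 47.7 to 55.3 RPKM in PFC SNI and 17 to 19.7 RPKM in PAG SNI. Its 3 regions did not overlap in the SNI libraries, whereas NAc sham (25.8 to 37.6 RPKM) and PFC sham (34.8 to 58.7 RPKM) did. The miR-29 host A330023F24Rik was nearly even, with means of 10.8, 12.4 and 13.4 RPKM in NAc, PFC and PAG SNI.

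The levels of 3 hosts of small nucleolar RNAs were as follows. Snhg12 had 7.65 to 9.68 RPKM in NAc SNI, 5.83 to 7.79 RPKM in PFC SNI and 7.01 to 8.41 RPKM in PAG SNI. Snhg6 had 4.42 to 5.44 RPKM, 3.61 to 4.73 RPKM and 2.40 to 3.42 RPKM in the same order, and Snhg5 had 4.54 to 5.93 RPKM, 3.38 to 4.52 RPKM and 3.49 to 4.46 RPKM. Ranges of all 3 regions overlapped for Snhg12, whereas for Snhg5 all NAc libraries lay above all libraries of PFC and PAG. Among the 3, Snhg6 had the widest difference, 0.76 ± 0.08 log2 for NAc minus PAG (limma adjusted p = 1.49e-07), under 2-fold. Ftx had 6.82 to 10.1 RPKM in NAc SNI, 7.16 to 10.9 RPKM in PFC SNI and 5.22 to 6.45 RPKM in PAG SNI.

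The promoters of 4 members restricted to 1 region are shown to set their base composition beside their pattern, since promoters rich in CG are usual for widely expressed genes. They are from the RefSeq promoter table of GRCm38.p6, 250 bases before to 50 after the start, 5′ to 3′, with each CG in capitals.
Lhx1os, highest in PAG, chr11:84525410-84525709, plus strand: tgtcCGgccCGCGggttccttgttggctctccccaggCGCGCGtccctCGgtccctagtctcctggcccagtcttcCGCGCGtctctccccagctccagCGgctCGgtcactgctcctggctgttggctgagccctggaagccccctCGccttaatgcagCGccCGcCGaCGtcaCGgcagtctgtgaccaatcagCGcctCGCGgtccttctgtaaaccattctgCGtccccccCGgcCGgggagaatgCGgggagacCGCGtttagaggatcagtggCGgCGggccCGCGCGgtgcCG
Crnde, highest in PAG, chr8:92356071-92356370, minus strand: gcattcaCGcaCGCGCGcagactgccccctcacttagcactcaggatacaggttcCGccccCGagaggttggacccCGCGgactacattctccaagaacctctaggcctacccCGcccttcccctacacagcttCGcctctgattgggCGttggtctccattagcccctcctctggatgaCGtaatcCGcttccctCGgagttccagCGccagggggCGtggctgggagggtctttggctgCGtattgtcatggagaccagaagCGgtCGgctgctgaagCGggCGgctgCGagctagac
2310075C17Rik, highest in NAc, chr9:112227206-112227505, plus strand: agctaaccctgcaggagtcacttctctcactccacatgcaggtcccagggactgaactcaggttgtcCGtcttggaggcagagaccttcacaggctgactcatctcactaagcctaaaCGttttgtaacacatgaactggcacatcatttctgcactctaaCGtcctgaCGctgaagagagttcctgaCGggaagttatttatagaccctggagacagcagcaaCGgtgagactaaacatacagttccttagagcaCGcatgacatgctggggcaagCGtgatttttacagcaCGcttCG
AI115009, highest in PFC, chr3:152666663-152666962, plus strand: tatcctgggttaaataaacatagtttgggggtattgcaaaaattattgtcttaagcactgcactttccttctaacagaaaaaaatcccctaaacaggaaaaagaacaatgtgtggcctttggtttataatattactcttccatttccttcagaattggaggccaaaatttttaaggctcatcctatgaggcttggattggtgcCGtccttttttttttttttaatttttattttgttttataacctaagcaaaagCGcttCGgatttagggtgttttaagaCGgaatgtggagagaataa
CG, which reads alike on both strands, occurred 33 times in the promoter of Lhx1os, 22 times in that of Crnde, 10 times in that of 2310075C17Rik and 4 times in that of AI115009. Of the 91 members with an entry, 60 (65.9%) had at least 10 CG in this window, with a median of 14. Of all 27025 genes of the promoter table, at any level and by the first start listed for each, 43.9% did, with a median of 7. Members had to reach 2 RPKM and were mostly matched by the nearest start, so the shares are not a like comparison. Members without an entry in GENCODE M21, such as the one named Pclo, were matched by name alone and may carry the promoter of another gene. Among the 19 members at least 2-fold over both other regions in SNI, 9 (47.4%) reached 10, with a median of 8. Restricted members thus included both CG-rich and CG-poor promoters.

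Several restricted members had the same highest region as their nearest protein-coding gene. Lhx1, whose start lies 125 bases from that of Lhx1os and in the opposite direction, averaged 0.0281, 0.00595 and 2.56 RPKM in NAc, PFC and PAG SNI. Irx5, beside Crnde, averaged 0.0117, 0.00705 and 1.48 RPKM, and Foxb1, overlapped by B230323A14Rik, 0.0182, 0 and 0.569 RPKM. Meis2, beside 2700033N17Rik and G630016G05Rik, averaged 40.1, 11.4 and 4.12 RPKM, and Arpp21, overlapped by 2310075C17Rik, 81.9, 22.5 and 2.51 RPKM. Ak5, overlapped by AI115009, averaged 35.1, 69.0 and 20.6 RPKM. In each of these pairs member and neighbour were highest in the same region. Where a member overlaps its neighbour on the other strand, the shared pattern may include shared reads.

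**Figure D3:**
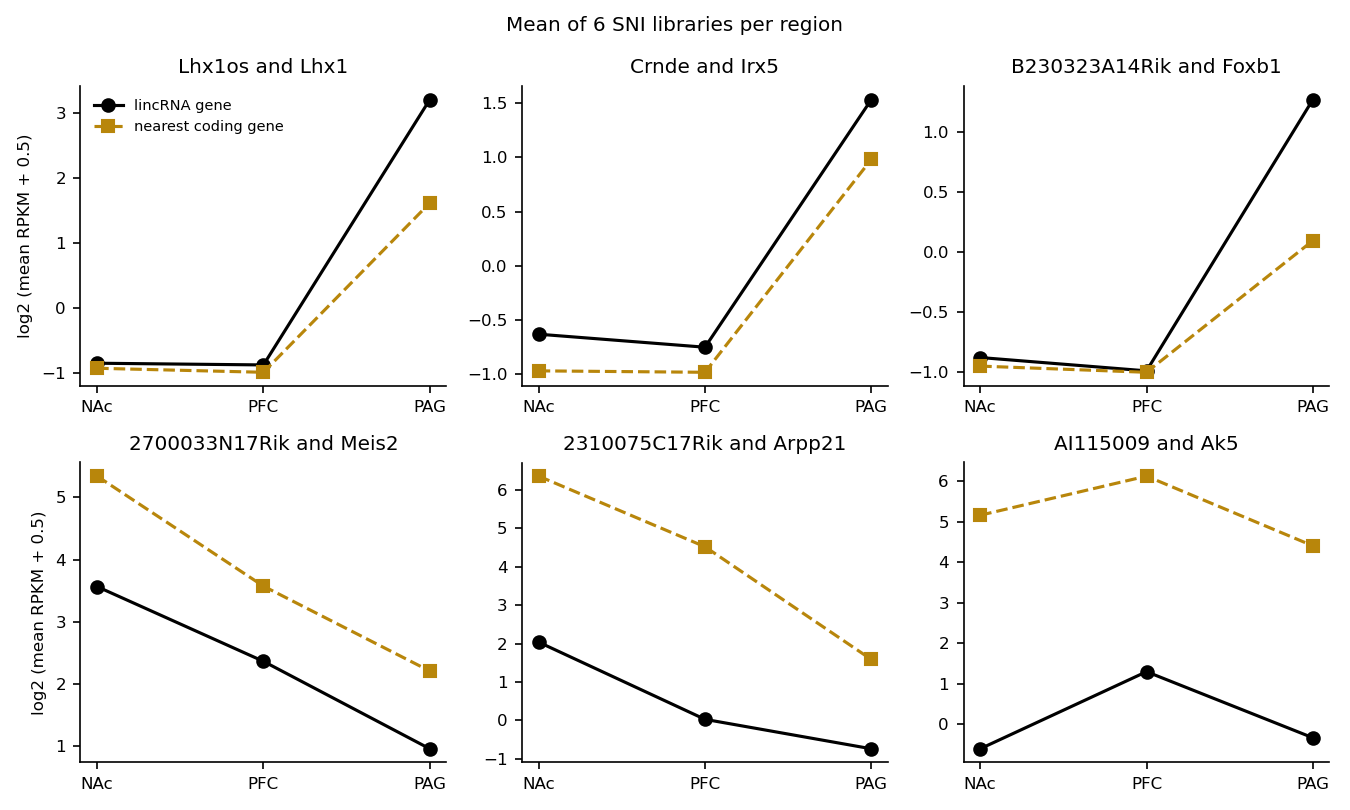
Mean of the 6 SNI libraries of each region, as log2(mean RPKM + 0.5), for 6 members and the protein-coding gene nearest to each. Both genes of each pair peak in the same region, PAG for Lhx1os, Crnde and B230323A14Rik, NAc for 2700033N17Rik and 2310075C17Rik and PFC for AI115009.

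Over all 141 members with a measured neighbour, 72 (51.1%) had the same highest region as that neighbour in the SNI libraries, against 4009 of 9580 (41.8%) for protein-coding genes and their neighbours. Of the 24 members at least 2-fold over both other regions, 17 (70.8%) did. Protein-coding genes restricted in this way were not counted, so the 41.8% is not a like background for these members. Among the 70 members that overlap no gene the count was 29 (41.4%), and among the 11 restricted ones of these 6 (54.5%). A start opposed to that of the neighbour within 1000 bases was found for 40 members (24.5%), and 21 of these (52.5%) shared its highest region.

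SNI was compared with sham within each region, with adjusted p-values over all genes tested. These comparisons share the sham libraries with the choice of members, and the regions share no library. A choice on high sham means can by itself move SNI minus sham of the members below 0. Its part in their median differences was not tested, so these medians are given as a description. In NAc, limma called 0 of 153 members at an adjusted p under 0.05 and 0% of all genes. No member had SNI libraries all above or all below the sham libraries, as 0.131% of all genes had. Unadjusted, 11 members had p under 0.05, and limma-voom on the recovered reads called 0 with 9 under an unadjusted 0.05. Log2 differences ran from -0.35 to 0.37, with a median of -0.07 beside -0.02 over all genes tested. The smallest p-value was that of 4930500F10Rik, with 2.14, 2.31 and 2.60 RPKM in sham and 1.61, 1.73 and 2.41 RPKM in SNI, groups that overlap (-0.30 ± 0.08 log2, limma unadjusted p = 0.00277, adjusted p = 0.78).

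In PFC, limma called 0 of 151 members and 0% of all genes, and groups without overlap were found for 0 members and 0.0856% of all genes. By limma 6 had an unadjusted p under 0.05, and limma-voom called 0 with 4 under that value. The differences ran from -0.33 to 0.46 log2, the highest being that of Gm26924 with its single high SNI library. 1700003M07Rik had the smallest p-value, with 6.65, 7.36 and 8.04 RPKM in sham and 6.06, 6.49 and 6.87 RPKM in SNI. All SNI libraries of this member lay below the sham median, though the ranges overlapped (-0.17 ± 0.06 log2, limma unadjusted p = 0.00874, adjusted p = 1).

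In PAG, 26 of 157 members (16.6%) differed between SNI and sham, 10 higher (6.37%) and 16 lower (10.2%) after SNI. Of all genes tested there, 35.2% were called, 21.5% higher and 13.7% lower. The share of members called was thus under the background. It was 14.6% for members of 2 to 10 RPKM and 36% for protein-coding genes of that level, and no test of these shares against each other was made. The median difference of the members was -0.07 log2, beside -0.02 over all genes. Quantile scaling, which moved the median difference of all genes by -0.037 log2, called 49 members, 6 higher and 43 lower. A model with the libraries' GC slope as a covariate called 0, with 7 under an unadjusted p of 0.05. In PAG that slope did not overlap between sham and SNI, so it goes largely with surgery. Such a model has little power to call a change here. The shares of all genes called under these settings are not given here, so the counts show only how the calls depend on processing. In 8 members (5.1%) the SNI and sham libraries did not overlap, 5 above and 3 below sham, where the same held for 16.9% of all genes.

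Gm13889, annotated as protein-coding in GENCODE M21, had 0.367, 0.613 and 0.768 RPKM in sham and 0.994, 1.18 and 1.33 RPKM in SNI. Each SNI library lay above each sham library, a difference of 0.65 ± 0.10 log2 (limma adjusted p = 0.000216). Gm27032 had 1.40, 1.65 and 1.90 RPKM in sham and 2.21, 2.93 and 3.32 RPKM in SNI, again without overlap (0.63 ± 0.09 log2, limma adjusted p = 0.000179). Gm16295 had 9.25, 10.8 and 12.5 RPKM in sham and 12.7, 14.5 and 17.3 RPKM in SNI, the lowest SNI library just above the highest sham library (0.42 ± 0.08 log2, limma adjusted p = 0.000964). Mtln (1500011K16Rik), now known to encode the mitochondrial microprotein mitoregulin, had 6.89, 7.37 and 8.20 RPKM in sham and 8.64, 10.1 and 11.8 RPKM in SNI. Its groups were separate too (0.42 ± 0.06 log2, limma adjusted p = 0.000301). These 4 members had adjusted p-values under 0.05 without any 1 of the 12 libraries.

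Of the 20 members in the lists of RNAs with named roles, 3 were called higher. Neat1 had 6.50, 7.29 and 8.47 RPKM in sham and 7.74, 8.73 and 10.6 RPKM in SNI, overlapping ranges with every SNI library above the sham median (0.27 ± 0.08 log2, limma adjusted p = 0.0171). Mirg had 3.70, 4.31 and 5.30 RPKM in sham and 4.36, 5.30 and 5.74 RPKM in SNI (0.24 ± 0.08 log2, limma adjusted p = 0.0347), and its call was lost without any 1 of PAG sham 26, 29 or 30 or PAG SNI 31, 32 or 36 (adjusted p up to 0.0763). Mir124a-1hg had 14.7, 16.6 and 18.1 RPKM in sham and 17, 18.3 and 19.7 RPKM in SNI (0.15 ± 0.05 log2, limma adjusted p = 0.0355). The groups of both members overlapped. The Mir124a-1hg call was lost without any 1 of PAG sham 25, 29 or 30 or PAG SNI 31, 33, 34 or 36 (adjusted p up to 0.0775).

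Among the lower members, Gm16894, antisense to the interleukin receptor gene Il1r2, had 2.18, 2.49 and 2.85 RPKM in sham and 1.66, 1.92 and 2.03 RPKM in SNI. All SNI libraries lay below all sham libraries (-0.31 ± 0.06 log2, limma adjusted p = 0.00182). Gm26782 had 13.5, 14.2 and 16.5 RPKM in sham and 10.7, 12.6 and 13.3 RPKM in SNI, also without overlap (-0.23 ± 0.06 log2, limma adjusted p = 0.00924). The let-7 host 6720427I07Rik had 2.30, 2.48 and 2.61 RPKM in sham and 1.69, 2.10 and 2.34 RPKM in SNI, with the highest SNI library inside the sham range (-0.24 ± 0.07 log2, limma adjusted p = 0.0165). 1700020I14Rik, the called member of the highest level, had 63.2, 67.0 and 73.6 RPKM in sham and 54.7, 59.0 and 67.4 RPKM in SNI (-0.18 ± 0.05 log2, limma adjusted p = 0.0188). Here 5 of 6 SNI libraries were below the sham median.

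The calls of 3 further lower members did not hold in all fits that left out 1 library. Mir670hg, host of miR-129-5p, had 0.664, 0.828 and 0.975 RPKM in sham and 0.359, 0.596 and 0.893 RPKM in SNI (-0.29 ± 0.11 log2, limma adjusted p = 0.0488). It was no longer called in 9 of the 12 fits that leave out 1 library, those without PAG sham 25, 27, 28, 29 or 30 or PAG SNI 31, 32, 33 or 34 (adjusted p up to 0.0965). Gm11454 had 1.92, 2.24 and 2.62 RPKM in sham and 1.46, 1.69 and 2.28 RPKM in SNI (-0.27 ± 0.09 log2, limma adjusted p = 0.0283) and lost its call without PAG sham 25, 27 or 29 or PAG SNI 31, 32 or 36 (up to 0.0618). 9230114K14Rik had 2.02, 2.12 and 2.20 RPKM in sham and 1.12, 1.65 and 2.22 RPKM in SNI (-0.27 ± 0.10 log2, limma adjusted p = 0.0477) and remained called in 2 of the 12 fits, those without PAG SNI 32 or 35 (otherwise up to 0.087). The SNI ranges of all 3 overlapped with sham.

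AI480526 was higher after SNI by 0.22 ± 0.06 log2 with no overlap of the groups (means of 6.22 and 7.36 RPKM, limma adjusted p = 0.00857), and B230217O12Rik (0.14 ± 0.04) and Gm20204 (0.11 ± 0.04) were higher with overlap. 4732491K20Rik, which M21 types as a transcript from a bidirectional promoter, was lower by -0.21 ± 0.05 log2 with no overlap (means of 2.61 and 2.20 RPKM, limma adjusted p = 0.00955). The other 8 lower members, with overlap, had differences from -0.11 (Gm9866) to -0.21 (Gm16973) log2, Gm27031 at -0.17 ± 0.06 (limma adjusted p = 0.0333) among them. Gm27031, the NAc member that is also present in PAG, had 24.6 to 31.7 RPKM in PAG sham and 21.8 to 25.4 RPKM in PAG SNI.

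**Figure D4:**
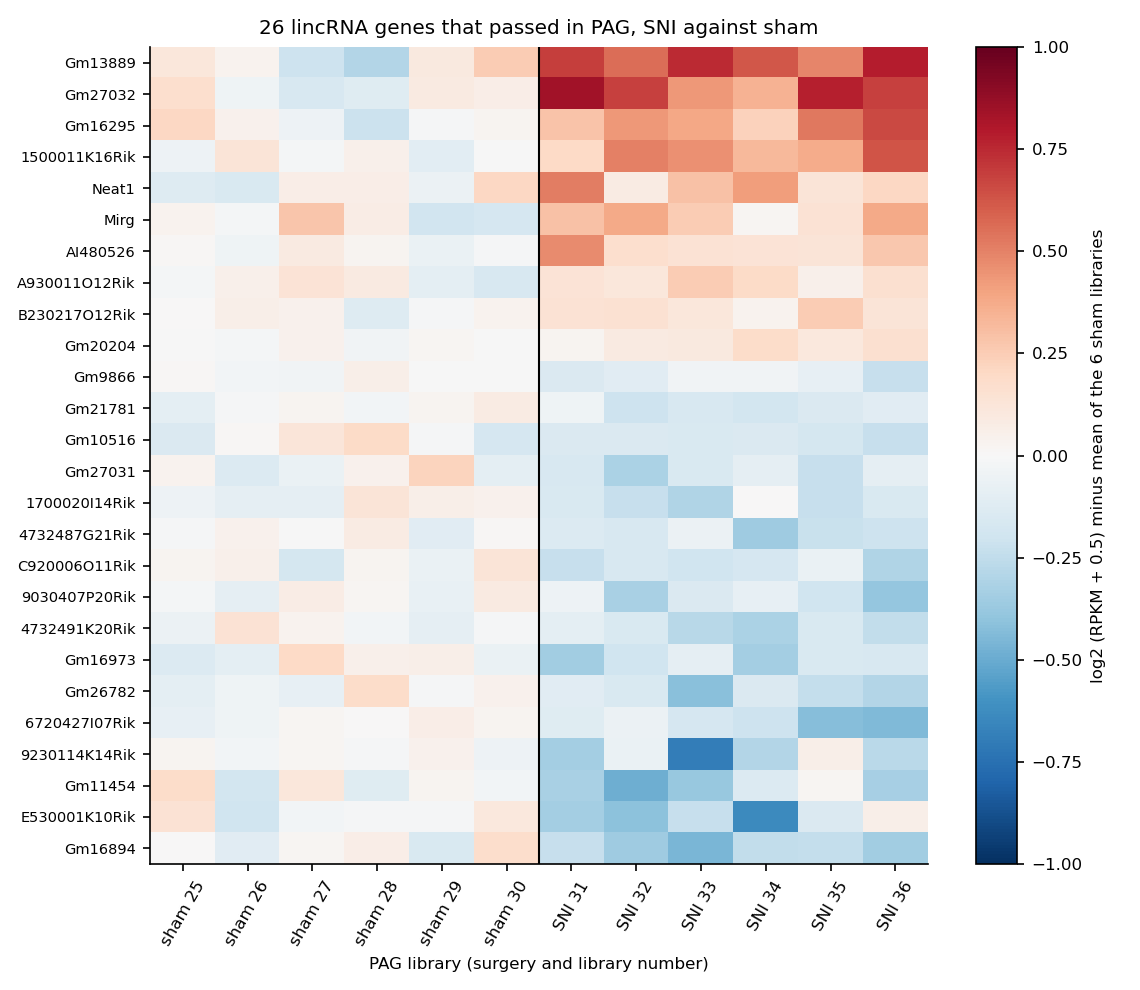
The 26 members called in PAG (lines) in the 6 sham and 6 SNI libraries (columns), coloured by the deviation of log2(RPKM + 0.5) from the mean of the sham libraries. The 10 higher and 16 lower members differ from sham in most SNI libraries, and Gm13889 and Gm27032 show the widest rise.

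Of 20 members in the lists of RNAs with named roles, 16 were not called in PAG. Meg3 had an adjusted p of 0.606 by limma, Malat1 0.61, Miat 0.127, Tunar 0.476, Lhx1os 0.343, Ftx 0.992, Crnde 0.49, Snhg1 0.071 and Snhg4 0.18. The lists also hold genes outside the members, and their counts stand beside 21.5% of all genes called higher and 13.7% called lower in PAG. Among RNAs of nuclear organisation, 2 of 4 tested were higher after SNI, Neat1 and 6720401G13Rik (0.19 ± 0.07 log2, limma adjusted p = 0.0395). Of 16 hosts of small nucleolar RNAs, 3 were lower and none higher: Gas5 (-0.20 ± 0.06 log2, limma adjusted p = 0.0195), Zfas1 (1500012F01Rik, -0.19 ± 0.06, adjusted p = 0.0343) and Snhg18 (0610007N19Rik, -0.19 ± 0.06, adjusted p = 0.0295). Of 8 microRNA hosts, 2 were higher (Mirg, Mir124a-1hg) and 2 lower (Mir670hg, Mir22hg). Among imprinted transcripts 1 of 4 was higher, among those of the X inactivation centre 0 of 2 were called and among those of neural development 1 of 11 was lower, Gas5. None of these genes was called in NAc or PFC.

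Base composition moved with the groups in PAG. For each library, the slope of log2 level on GC content across genes was taken as a deviation from the mean of its region. It ran from -0.214 to -0.0255 log2 per 10 percentage points of GC in the sham libraries and from 0.0359 to 0.217 in the SNI libraries, so the groups did not overlap, and an effect of SNI and of GC in library preparation cannot be told apart here. The members followed that slope. Of the 46 members under 45% GC, 1 was higher and 6 were lower, of the 78 between 45% and 55%, 5 were higher and 9 lower, and of the 18 at 55% or more, 3 were higher and none lower. Across the 142 members with a GC value, Pearson's r between GC content and PAG log2 difference was 0.36, a description across genes of the same libraries. It was 0.32 over 140 members in NAc and 0.15 over 138 in PFC. There the slopes of sham and SNI libraries overlapped, and with the slope as a covariate limma called 0 members in both, with 4 under an unadjusted p of 0.05 in NAc and 9 in PFC.

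The middle 100 bases of 4 called members show the contrast in composition, with G and C in capitals, from the GENCODE M21 transcripts (GRCm38), 5′ to 3′.
Gm27032, higher in PAG SNI, bases 509 to 608 of 1116: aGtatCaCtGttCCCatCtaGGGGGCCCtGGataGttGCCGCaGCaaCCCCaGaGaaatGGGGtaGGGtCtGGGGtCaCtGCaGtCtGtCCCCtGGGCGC
Gm16295, higher in PAG SNI, bases 272 to 371 of 643: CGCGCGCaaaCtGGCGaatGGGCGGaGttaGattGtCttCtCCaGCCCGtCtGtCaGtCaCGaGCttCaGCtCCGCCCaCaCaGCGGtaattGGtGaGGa
6720427I07Rik, lower in PAG SNI, bases 2750 to 2849 of 5598: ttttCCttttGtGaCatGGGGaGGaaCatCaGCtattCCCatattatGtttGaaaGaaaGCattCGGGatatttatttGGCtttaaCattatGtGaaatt
1700020I14Rik, lower in PAG SNI, bases 4101 to 4200 of 8300: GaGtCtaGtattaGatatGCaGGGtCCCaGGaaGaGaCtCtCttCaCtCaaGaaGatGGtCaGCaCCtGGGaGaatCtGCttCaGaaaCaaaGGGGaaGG
G and C made up 61 of the 100 bases shown for Gm27032 and 59 for Gm16295, against 33 for 6720427I07Rik and 48 for 1700020I14Rik. Over the whole transcripts the GC content was 62.6%, 62.2%, 38.8% and 39.9%. Mtln, at 44.5% GC, rose with the GC-rich members and Gm11454, at 50.8% GC, fell.

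**Figure D5:**
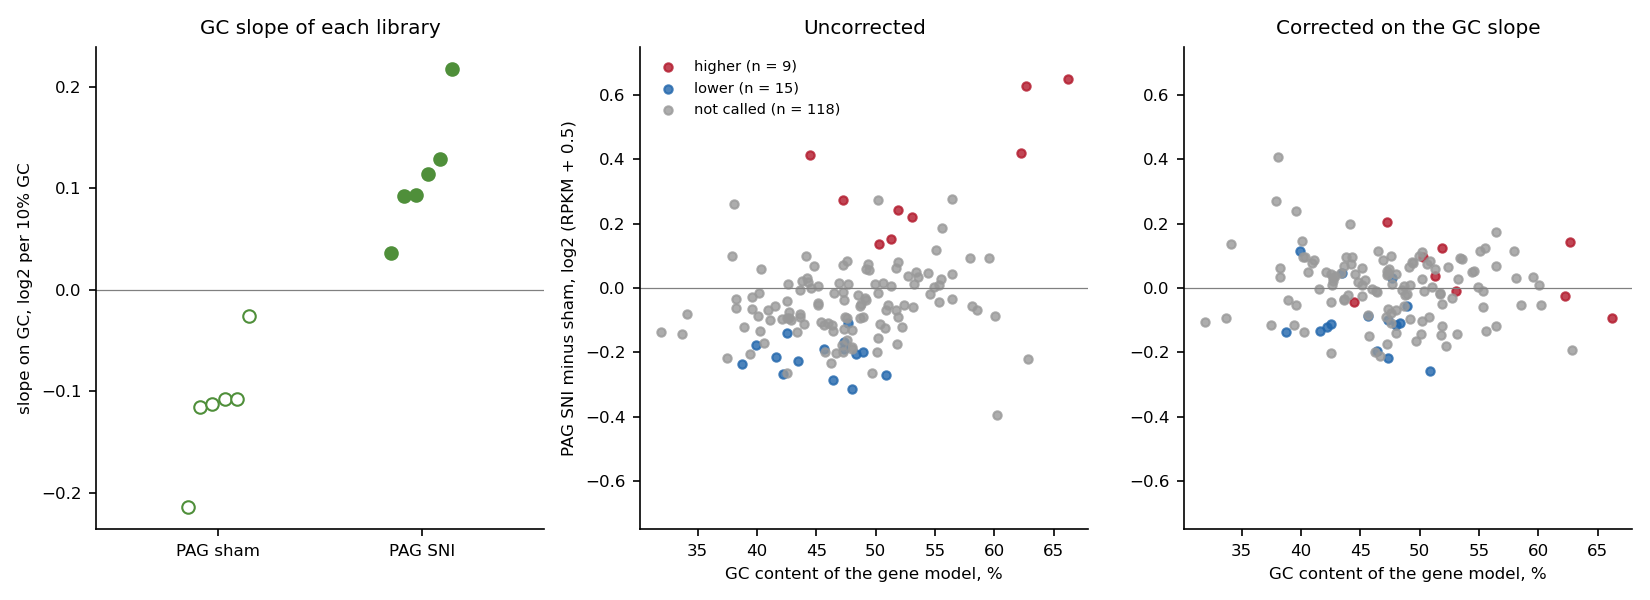
GC slope of each PAG library (log2 per 10 percentage points of GC). Beside it, the GC content of 142 members against their SNI minus sham difference in PAG, before and after a correction. The correction removed each gene's own dependence on the libraries' GC slope, as estimated in NAc and PFC, and did not use gene GC content. Sham slopes are all below and SNI slopes all above 0; r across members is 0.36 before and -0.09 after the correction.

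Another correction took each gene's own dependence on the libraries' GC slope from the groups of the other 2 regions and removed it in PAG. It does not use the GC content of the gene, and it also removes anything else that goes with the slope in those libraries. With this correction 0 members were called in PAG by limma, with 18 under an unadjusted p of 0.05. A loess correction of each library left 14 called, 6 higher and 8 lower, of which 6 were among the 26. It turned the trend over, with r = -0.42 across the 142 members, 2 higher and none lower under 45% GC, and none higher and 6 lower at 55% or more. The share of all genes called after loess is not given here. Under the correction taken from the other regions, Gm13889 stood at -0.09, Mtln (1500011K16Rik) at -0.04, Gm16295 at -0.02 and Gm26782 at 0.05 log2, each on the other side of 0.

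Markers of cell types also moved in PAG. The summed level of 8 microglial genes, none at 0, was 67.7 to 76.1 RPKM in sham and 82.5 to 104 RPKM in SNI without overlap, and 4 of the 8 genes were called higher. Mean levels in sham and SNI were 8.89 and 15.97 RPKM for C1qa, 18.4 and 23.02 RPKM for C1qb and 5.48 and 8.62 RPKM for C1qc, which encode chains of complement C1q, 2.58 and 4.12 RPKM for Tmem119 and 15.2 and 16.4 RPKM for Csf1r. The mean was lower in SNI for Cx3cr1 (10.04 and 9.93 RPKM), Aif1 (1.95 and 1.76 RPKM) and P2ry12 (9.94 and 9.17 RPKM), none of them called lower. The sum of 8 astrocyte genes, of which 4 were called higher and 2 lower, was 848 to 942 RPKM and 913 to 990 RPKM. That of 10 oligodendrocyte genes, 4 of them called higher, was 1267 to 1456 RPKM and 1351 to 1855 RPKM. The sum was, in the same order, 210 to 322 RPKM and 98.6 to 278 RPKM for 4 serotonin neuron genes and 9.23 to 27.2 RPKM and 1.42 to 16.2 RPKM for 5 cholinergic neuron genes. Of the cholinergic genes 2 were tested, with a median difference of -1.14 log2, and 1 was called lower. Their part in the changes of Neat1, Gm27032 and the other called members was not tested.

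The SNI effect was also compared between regions in 1 model of all 36 libraries. In each of the 3 pairs of regions limma called 0 members, and 0 of all genes. Unadjusted p-values under 0.05 were found for 6 members in PAG against NAc, 12 in PAG against PFC and 2 in NAc against PFC. For Gm27032 the effect was larger in PAG than in PFC by 0.69 ± 0.22 log2 (limma adjusted p = 0.212). Without PFC sham library 13, 4 members were called in PAG against PFC, 3 higher and 1 lower, and the share of all genes in that fit is not given here. A call in PAG and none in NAc or PFC thus does not show that the effect was confined to PAG.

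The choice of members has a sharp edge. Just inside it lay F420014N23Rik (2.0 RPKM in PFC sham), D930048G16Rik (2.01 RPKM in NAc sham) and Gm26916 (2.05 RPKM in PFC sham). Just outside lay Gm26592, 2410018L13Rik and Gm12326, each with 1.98 RPKM in PAG sham. Chosen by SNI means instead, 153 genes would have been members, 151 of them shared.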

How the data were processed

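Polyadenylated RNA of 36 libraries was sequenced. The authors deposited 1 table of RPKM values per gene and library with gene length (in bases) and biotype. The submitters' processing notes name TopHat2, HTSeq and the build mm10; versions, roles and strand setting are not given in the sources read for this work. The deposited RPKM values gave whole reads for 100% of entries (tolerance 0.001), from which the depth of 27.6 to 64.9 M reads per library was recovered. Counts of all 90 library pairs within groups differed by more than sampling noise (chi-square over degrees of freedom at least 3.67), and each library was kept as a replicate. Gene IDs were matched to GENCODE M21 (97.9%) for positions, overlaps and GC content (148 of 163 members).

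Values were tested as log2(RPKM + 0.5) with limma 3.58.1 in R 4.3.3 (moderated test with a mean-variance trend, two-sided, Benjamini-Hochberg adjustment over all genes tested, threshold 0.05), keeping genes whose mean over the libraries fitted reached 0.5 RPKM. Differences of low genes are understated on this scale. SNI was compared with sham in the 12 libraries of each region, regions in the 18 SNI libraries (also at least 2-fold), and differences between effects in all 36. The code was tested on simulated data. Alternatives were the pseudocount, the filter, scaling, GC corrections, array weights, 1 model of all libraries and leaving out each library; limma-voom and subsets by annotation were added after seeing the data.

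Named members were those in lists of known roles, the 5 of highest sham mean in each region, those with the largest called SNI change (up to 6 a direction) or, with none called, the 4 smallest p-values, and the 3 largest differences per pair of regions and direction. Other names (Lncenc1, B230323A14Rik, G630016G05Rik, the microRNA hosts and the neighbours) were chosen after their values were seen. Members and lists were chosen with earlier results of these data known.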

Additional observations from a re-analysis of the deposited data

Results flagged for a closer look

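In 22 of 228 groups of 6 libraries, over 40 members, 1 library stood apart from the other 5 by Dixon's criterion (9.65%; chance alone gives about 1 in 20). Gm26924 had 2168 RPKM in NAc SNI 8 (others 176 to 229) and 1561 in PFC SNI 21 (157 to 230). NAc SNI 7, the library with the highest cortical marker sum (213 RPKM), had 88.2 RPKM of 1700020I14Rik (38.8 to 53.6), 56.2 of A830039N20Rik (28.8 to 38.9), 12.2 of AI504432 (8.54 to 9.23) and 23.5 of Gm16295 (41.8 to 51.7). PFC SNI 19 had 93.7 RPKM of Miat (66.7 to 76.5), 55.3 of Mir124a-1hg, A930011O12Rik in the table (47.7 to 50.5), 6.63 of Snhg4 (5.46 to 5.86) and 3.31 of Gm16894 (1.96 to 2.40). NAc SNI 7 also had the lowest GC slope of the NAc libraries (-0.198 log2 per 10 percentage points of GC). The slope of PFC SNI 19 (-0.237) was the lowest of the PFC SNI libraries. The parts of cortical tissue and of GC content in these values were not tested.

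PAG sham 25 had 18 RPKM of AI504432 (19.3 to 19.9) and 2.90 of 2810008D09Rik (3.35 to 3.56). Gm27031 stood at 5.52 RPKM in PFC SNI 24 (3.13 to 3.85), the library with the highest striatal marker sum in PFC (62.2 RPKM, others 25.6 to 28.7), C330006A16Rik at 21 in NAc sham 6 (24.1 to 25.5), Gm26782 at 4.55 in NAc sham 2 (2.41 to 3.09) and Snhg12 at 9.68 in NAc SNI 11 (7.65 to 8.36). Snhg5 was at 4.46 RPKM in PAG SNI 33 (3.49 to 3.79), 6720427I07Rik at 3.47 in PFC sham 14 (2.86 to 3.08) and 2410004N09Rik at 2.12 in PAG SNI 34 (3.20 to 3.84). E530001K10Rik was at 2.28 RPKM in NAc SNI 12 (3.08 to 3.48) and at 1.39 in PFC SNI 20 (1.23 to 1.28), and Snhg7, whose ID in the table is that of the small nucleolar RNA gene Snora43 in GENCODE M21, at 1.91 in NAc sham 3 (2.25 to 2.45).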

How the results depend on the processing

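In PAG, SNI against sham called 26 members; this became 49 with quantile scaling (6 higher, 43 lower), 14 after loess correction for GC, 0 with the GC slope as a covariate, 0 with the correction taken from the other regions, 12 in 1 model of all 36 libraries, 16 among members typed lincRNA in GENCODE M21 and 12 among those overlapping no gene, the last 2 from fewer members. The covariate goes largely with surgery in PAG, so that model had little power. Leaving out 1 library gave 18 to 29, with 18 without PAG SNI 31. The direction turned for Gm16295 (-0.0521 with loess, -0.0241 with the correction from other regions), Gm26782 (0.0483), Mtln, 1500011K16Rik in the table (-0.0438), and Gm13889 (-0.0935), the last 3 under the correction from other regions; the cause was not tested. Between regions, NAc against PFC called 15, and 8 with a 2 RPKM filter, 88 without a fold minimum and 5 without overlapping members; NAc against PAG called 39, and 24, 115 and 16; PFC against PAG called 35, and 124 without a fold minimum and 16 without overlapping members. The counts without overlapping members leave out the 74 members that overlap a gene and the 15 without an entry. They thus come from far fewer members and are not to be read as lost calls. The effect in PAG against that in PFC called 0 to 4 members, 4 without PFC sham 13. The number of members was 282 at 1 RPKM and 61 at 5 RPKM. The counts in this section are given without the share of all genes called under each setting. Scaling moved the median of all genes by at most 0.037 log2. Depth limits the lowest members, which have few reads where they are low. No paired analysis was possible because the groups share no library numbers.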
